A study of Mus musculus with 6 samples.

Results

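Tubulins are the protein subunits of microtubules, and 10 mouse tubulin genes were followed here, 7 encoding beta-tubulins (Tubb3, Tubb2a, Tubb2b, Tubb4a, Tubb4b, Tubb5 and Tubb6) and 3 encoding alpha-tubulins (Tuba1a, Tuba4a and Tuba8). Every probe set whose platform gene symbol was one of these names was taken, which gave 21 of the 45037 probe sets tested (10 of 18193 genes with a probe set of their own). None of the 21 passed the test between SCARKO-jsd and jsd testes. Tubb3, a beta-tubulin of Sertoli cells, averaged 9.15 ± 0.38 in SCARKO-jsd testes and 9.19 ± 0.080 in jsd testes (log2 expression, SD, n = 3 each). The SCARKO-jsd average rested on 1 array that stood above the other 5, with the remaining pair below all jsd arrays.

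The series holds 6 Affymetrix arrays of whole-testis RNA, 3 from SCARKO-jsd mice and 3 from jsd mice, all 12 weeks old. The jsd mice carry the jsd mutation of Utp14b, in which spermatogonia stop short of differentiation in the adult, so that the tubules hold few cells beyond that stage. SCARKO-jsd mice share that mutation and have, in addition, a conditional knockout of the androgen receptor in Sertoli cells, the somatic cells that nurse the germ line. The labels number the arrays 1 to 3 in each group, and the Cre driver and strain are not given in the sources used here. The labels name no mouse for each array, and the spread behind each p-value is that of these 3 and 3 samples, which may be partly technical. Values are log2 expression after RMA, a normalization meant to give all arrays nearly the same overall brightness. The median of SCARKO-jsd 2 was nonetheless 6.26, against 6.40 to 6.41 on the other arrays. Differences are always given as SCARKO-jsd less jsd. A probe set is called dim where its mean over the 6 arrays lay at or under 5.69, a limit that 40% of all probe sets did not exceed.

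A microtubule is a hollow tube of alpha- and beta-tubulin pairs. Vertebrates have several genes for each, called isotypes, which differ most in the acidic tail at the end of the protein and in where they are used. In Sertoli cells microtubules run along the tall axis of the cell, hold its shape and serve as tracks for transport and for moving spermatids. Dividing germ cells build spindles from them, and spermatids build the manchette and the flagellum. Tubb3 is best known from neurons, and its expression in mouse and rat Sertoli cells has been described as dependent on androgen.

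Tubb3 was taken for its upstream sequence as the gene with a described androgen response. Tubb2a and Tuba1a were added as the 2 genes with a probe set whose groups did not overlap. With SCARKO-jsd higher, groups did not overlap for 9.99% of all probe sets, so this does not set the 2 genes apart. The upstream sequences of these 3 members are shown. Each is the 250 bases before the RefSeq start site on GRCm38.p6, 5′ to 3′ along the gene. Capitals mark TATAA or its complement TTATA.
Tubb3 (chr8:123411303-123411552, plus strand): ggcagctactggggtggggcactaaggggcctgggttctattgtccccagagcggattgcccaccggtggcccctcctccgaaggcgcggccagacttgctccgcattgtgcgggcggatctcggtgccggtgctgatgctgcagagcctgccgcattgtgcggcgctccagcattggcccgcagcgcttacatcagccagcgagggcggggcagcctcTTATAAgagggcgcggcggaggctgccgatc
Tubb2a (chr13:34078009-34078258, minus strand): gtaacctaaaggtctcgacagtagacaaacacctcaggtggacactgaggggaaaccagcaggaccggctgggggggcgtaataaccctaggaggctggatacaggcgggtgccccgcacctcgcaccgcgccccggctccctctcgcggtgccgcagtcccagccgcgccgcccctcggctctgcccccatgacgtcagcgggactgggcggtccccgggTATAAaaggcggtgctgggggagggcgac
Tuba1a (chr15:98953502-98953751, minus strand): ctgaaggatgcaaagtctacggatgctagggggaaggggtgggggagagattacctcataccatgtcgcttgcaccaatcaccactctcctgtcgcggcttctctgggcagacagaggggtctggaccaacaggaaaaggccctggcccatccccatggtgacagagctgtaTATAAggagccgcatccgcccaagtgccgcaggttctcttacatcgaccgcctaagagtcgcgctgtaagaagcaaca
These windows were searched on both strands for TATAA and for AGAACA, the half-site bound by androgen and glucocorticoid receptors. RefSeq's table held such windows for 8 of the 10 genes. AGAACA occurred in 0 of the 8, against 16.1% of 32851 promoter windows of the same length. TATAA occurred in the 3 windows shown and in none of the other 5, against 22.8% of all windows. In Tubb3 the TATAA began 30 bases before the start, with an overlapping match on the other strand beginning at 31. In Tubb2a it began 29 bases before the start and in Tuba1a 78. A match or its absence describes these letters only and says nothing of binding.

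The labels and the tissue were checked first. Rhox5, an X-linked homeobox gene of Sertoli cells whose transcription depends on androgen, lay at 5.44 to 6.11 in the SCARKO-jsd arrays and at 9.74 to 10.43 in the jsd arrays (log2 expression). All 12 Sertoli cell markers and all 5 measured Leydig cell markers were above the dim limit. Of 14 markers of meiosis and spermatids 9 were dim, among them Tnp1, Tnp2 and Prm2. Sycp1, Sycp3, Meig1, Prm1 and Acr of that list were above the limit. SCARKO-jsd 2 stood apart. Its correlation with the other arrays across probe sets was 0.965 to 0.975, while pairs without it reached 0.996 (across probe sets, which are not independent replicates). The gap between the 3′ and the 5′ control probe sets of beta-actin was 1.66 log2 units there and 0.70 to 0.98 on the remaining arrays. For Gapdh it was 0.64 there and -0.285 to -0.102 on the rest. Such a gap widens in degraded or incompletely copied RNA. Differences below are given with all arrays and, where a result turns on it, also without SCARKO-jsd 2, and the part of RNA quality in them was not tested.

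With limma and a threshold of 0.05 on the p adjusted by Benjamini-Hochberg over the whole table, 0 of the 21 tubulin probe sets passed, where 0.280% of all probe sets did. At an unadjusted p under 0.05 the count was also 0, against 10.3% of all probe sets. The lowest adjusted p among the members was 0.488. The count stayed at 0 under 14 of 15 alternative settings and was 6 with estimated array weights, which called 8870 probe sets and did not converge. Above 0 lay 19 of the 21 differences and below it 2, with a median of 0.15 log2 units, beside a median of 0.013 and a share above 0 of 53.2% over all probe sets. SCARKO-jsd arrays were all above the jsd arrays for 2 members, against 9.99% of all probe sets, and all below them for 0, against 6.93%. The standard errors of the members ran from 0.081 to 0.27 log2 units, with 3 arrays in each group. In RNA of a whole testis, a change in the number of cells of a type and a change in the RNA of each cell cannot be told apart.

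**Figure D1:**
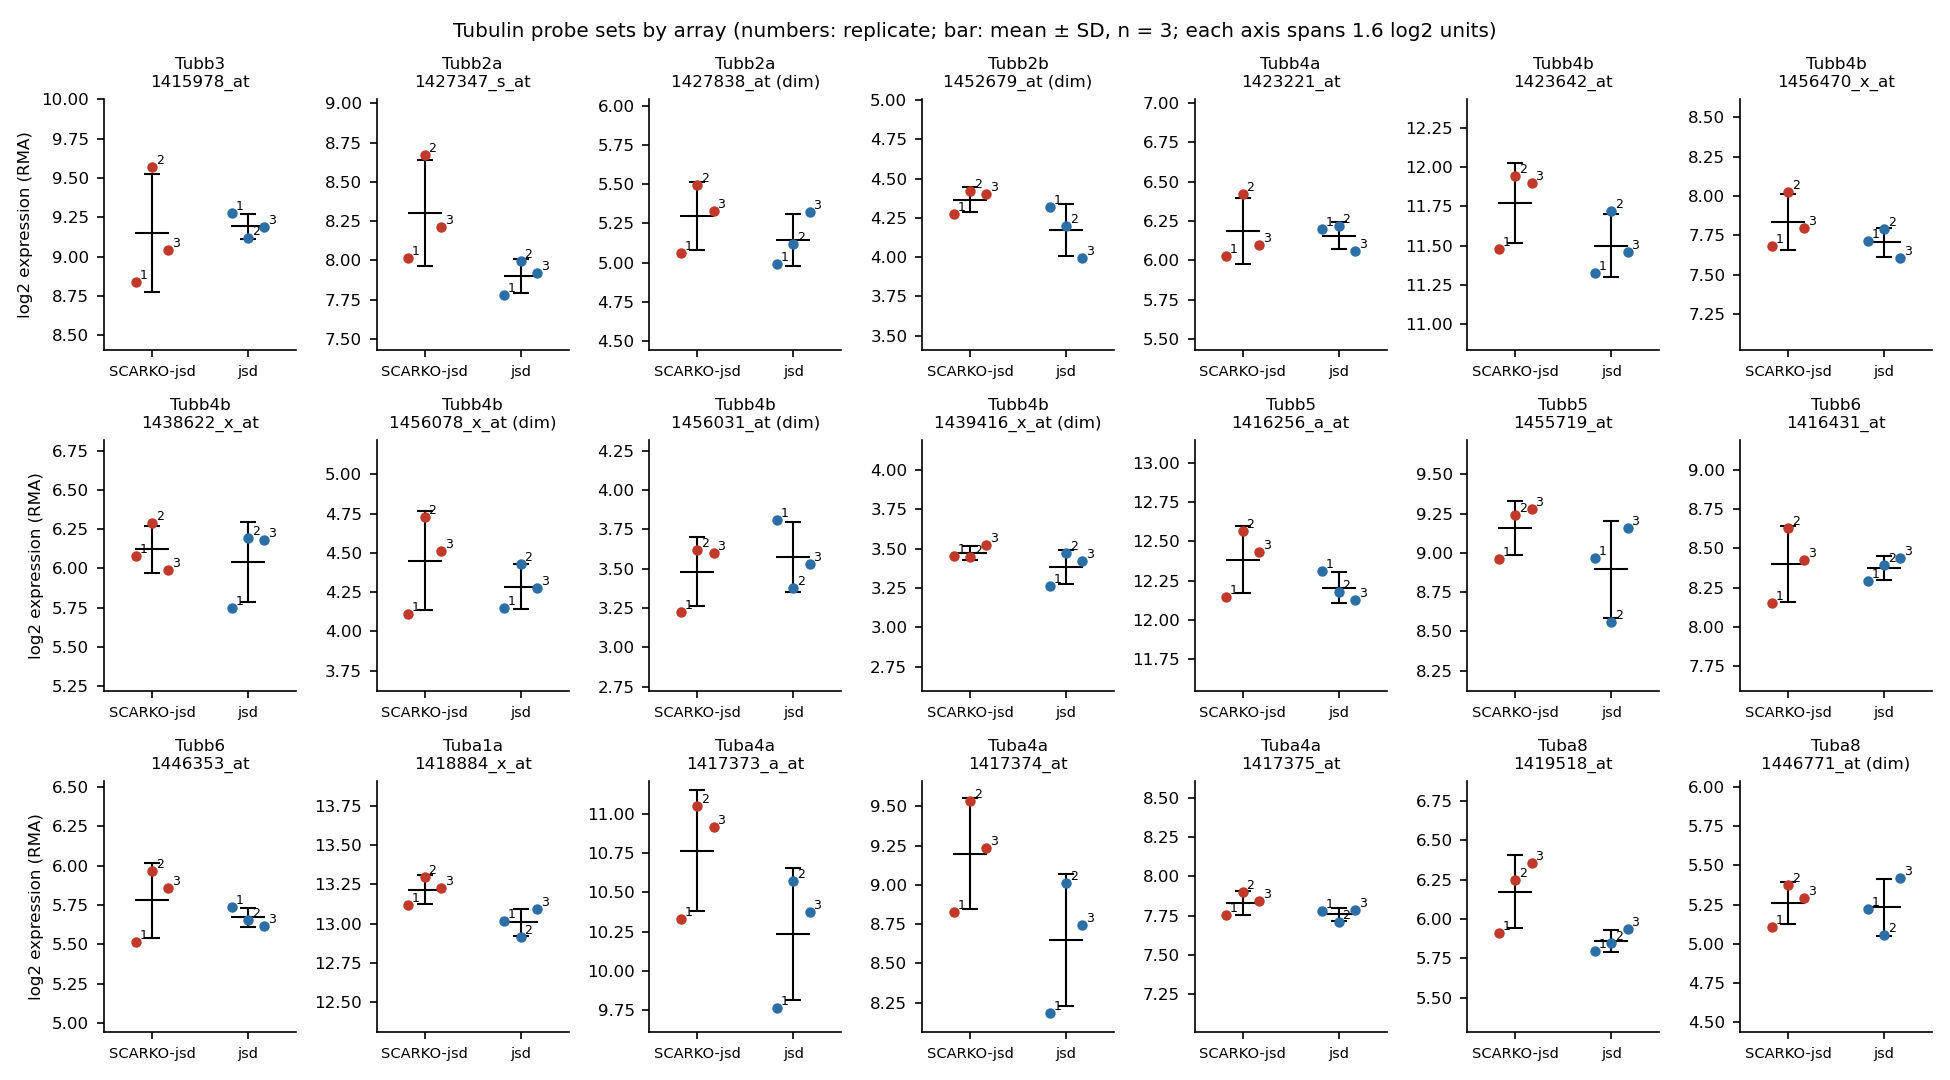
Log2 expression of the 21 tubulin probe sets in each array, with SCARKO-jsd arrays in red and jsd arrays in blue, each point numbered by its replicate, and the mean ± SD (n = 3) in black. Each vertical axis spans the same number of log2 units; groups did not overlap for Tubb2a 1427347_s_at and Tuba1a 1418884_x_at.

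Tubb3 was measured by 1 probe set, 1415978_at. Its log2 expression was 8.84, 9.57 and 9.04 in SCARKO-jsd 1, 2 and 3, and 9.28, 9.12 and 9.19 in jsd 1, 2 and 3. SCARKO-jsd 2 was thus the highest of the 6 arrays, SCARKO-jsd 1 and SCARKO-jsd 3 were the lowest pair, and the jsd arrays lay close together between them. The difference was -0.043 ± 0.19 (SE), with a 95% interval of -0.50 to 0.41 and a limma Benjamini-Hochberg adjusted p of 0.954. An exact two-sided permutation test over the 20 splits of the arrays gave p = 0.9, where 0.1 is the smallest it can give. The interval takes in decreases and increases, so these arrays do not show that Tubb3 kept its level.

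Without SCARKO-jsd 2, the Tubb3 difference was -0.25 ± 0.10 (SE), with a 95% interval of -0.50 to -0.0062. Both remaining SCARKO-jsd arrays were below all 3 jsd arrays. The limma p was 0.0458 before adjustment and 0.351 after it, where 1.39% of all probe sets passed after adjustment and 13.7% before it in the same 5 arrays. An exact permutation test gave p = 0.1, the smallest that 10 splits allow. Tubb3 was the 1 member of 21 whose groups separated with SCARKO-jsd lower once that array was left out, against 16.1% of all probe sets. Without SCARKO-jsd 1, the Tubb3 difference was 0.11 and without SCARKO-jsd 3 it was 0.011, so its sign depended on which SCARKO-jsd array was used. With arrays centred on their medians the difference was 0.00067.

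The genes whose pattern was most like that of Tubb3 over the 6 arrays, among 12971 genes above the dim limit by their brightest probe set, were Poli (Pearson r = 0.997), a DNA polymerase that copies past damaged bases, Mmachc (0.997), which processes vitamin B12, and Ggt5 (0.993), a gamma-glutamyltransferase. All 3 were highest in SCARKO-jsd 2 and lowest in SCARKO-jsd 1, and their differences between the groups were -0.018, -0.035 and -0.039. The 6 points share the arrays, and the likeness is a description of them.

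Tubb2a and Tubb2b, both of class II and best known from the brain, lie next to each other on chromosome 13 with 1 annotated gene between them. The bright Tubb2a probe set, 1427347_s_at, had log2 expression of 8.01, 8.67 and 8.22 in SCARKO-jsd 1, 2 and 3, and 7.78, 7.995 and 7.92 in jsd 1, 2 and 3. The groups did not overlap, though SCARKO-jsd 1 exceeded jsd 2 by a small margin. The difference was 0.40 ± 0.18 (SE; limma, adjusted p = 0.512), and 0.22 ± 0.11 without SCARKO-jsd 2 (adjusted p = 0.457). A second Tubb2a probe set, 1427838_at, was dim, with a difference of 0.15 ± 0.14. The ending of 1427347_s_at marks a probe set whose probes match more than 1 transcript, so which gene its signal came from is uncertain. Tubb2b was dim on its 1 probe set, with 4.28, 4.42 and 4.40 in SCARKO-jsd arrays and 4.32, 4.20 and 3.99 in jsd arrays, and its difference was 0.20 ± 0.11 (limma, adjusted p = 0.621). A probe set shared by Tubb2b and the pseudogene Tubb2a-ps2 counts for neither gene and was also dim, at -0.12 ± 0.077.

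Tubb4a, a beta-tubulin of neurons and myelinating cells, was measured close to the dim limit. Its log2 expression was 6.03, 6.42 and 6.10 in SCARKO-jsd 1, 2 and 3, and 6.20, 6.22 and 6.06 in jsd 1, 2 and 3. The groups overlapped, and the difference was 0.027 ± 0.12 (SE; limma, adjusted p = 0.955). It was -0.092 ± 0.096 without SCARKO-jsd 2. Markers of neurons and Schwann cells, which like Tubb3 and Tubb4a are nerve genes, summed to 643 to 753 in SCARKO-jsd arrays and 648 to 660 in jsd arrays (linear expression, 10 of 11 genes measured, none called). Elavl4, Gap43, Nefl and Snap25 of that list were dim.

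Tubb4b, the beta-tubulin used in cilia and in the flagellum of sperm, had 6 probe sets, of which 3 were above the dim limit. The brightest, 1423642_at, had log2 expression of 11.48, 11.94 and 11.90 in SCARKO-jsd 1, 2 and 3, and 11.33, 11.72 and 11.46 in jsd 1, 2 and 3. SCARKO-jsd 2 and SCARKO-jsd 3 were above all jsd arrays, while SCARKO-jsd 1 lay among them. The difference was 0.27 ± 0.16 (SE; limma, adjusted p = 0.645). The other 2 above the limit, 1456470_x_at and 1438622_x_at, differed by 0.13 ± 0.11 and 0.079 ± 0.15. The latter was close to the limit, with a mean of 6.08. The 3 dim probe sets gave 0.16 for 1456078_x_at, 0.088 for 1439416_x_at and -0.092 for 1456031_at, the lowest difference of the 21 members. Without SCARKO-jsd 2 the 3 probe sets above the limit gave 0.19, 0.034 and -0.0042, and the dim ones 0.025, 0.10 and -0.16. No Tubb4b probe set thus separated the groups, and the bright one had the largest difference of the 6.

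Tubb5, the widely expressed class I beta-tubulin that dividing cells rely on, had 2 probe sets above the limit. For 1416256_a_at log2 expression was 12.15, 12.57 and 12.43 in SCARKO-jsd 1, 2 and 3, and 12.31, 12.18 and 12.13 in jsd 1, 2 and 3. The difference was 0.18 ± 0.13 (SE; limma, adjusted p = 0.709), with SCARKO-jsd 1 inside the jsd range. For 1455719_at the values were 8.96, 9.24 and 9.28 in SCARKO-jsd arrays, and 8.97, 8.56 and 9.16 in jsd arrays, a difference of 0.26 ± 0.17 (adjusted p = 0.681). Here jsd 2 was the lowest array, and SCARKO-jsd 1 again lay within the jsd range. Leaving out SCARKO-jsd 2 gave 0.085 ± 0.12 for 1416256_a_at and 0.22 ± 0.19 for 1455719_at.

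Tubb6, the class V beta-tubulin, also had 2 probe sets above the limit. On 1416431_at it had 8.15, 8.63 and 8.42 in SCARKO-jsd 1, 2 and 3, and 8.29, 8.40 and 8.44 in jsd 1, 2 and 3. The group means lay close together, at 0.026 ± 0.13 (SE; limma, adjusted p = 0.960), with SCARKO-jsd 2 the highest array and SCARKO-jsd 1 the lowest. The second, 1446353_at, with a mean of 5.72 just above the dim limit, showed the same extremes and differed by 0.11 ± 0.13. The differences were -0.087 ± 0.11 and 0.014 ± 0.12 without SCARKO-jsd 2.

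Among the alpha-tubulins, Tuba1a, which is abundant in developing neurons, had 13.12, 13.30 and 13.23 in SCARKO-jsd 1, 2 and 3, and 13.02, 12.92 and 13.09 in jsd 1, 2 and 3 on 1418884_x_at (log2 expression). All SCARKO-jsd arrays were above all jsd arrays, the closest pair being SCARKO-jsd 1 and jsd 3. The difference was 0.21 ± 0.091 (SE), a 1.15-fold higher mean (limma, adjusted p = 0.516), and 0.16 ± 0.098 without SCARKO-jsd 2 (adjusted p = 0.528). The ending of this name marks probes that can bind other sequences, and alpha-tubulin genes are nearly alike, so the signal may include relatives. A probe set that names both Tuba1a and Gm6682 was dim, at 0.086 ± 0.12. After SCARKO-jsd 2 was left out, groups with SCARKO-jsd higher did not overlap for 2 members, Tubb2a 1427347_s_at and Tuba1a, against 14.4% of all probe sets.

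Tuba4a, an alpha-tubulin made without the terminal tyrosine that most others carry, had the largest differences of the group. On 1417373_a_at its log2 expression was 10.33, 11.05 and 10.91 in SCARKO-jsd 1, 2 and 3, and 9.77, 10.57 and 10.38 in jsd 1, 2 and 3. On 1417374_at it was 8.83, 9.54 and 9.23 in SCARKO-jsd arrays, and 8.19, 9.01 and 8.75 in jsd arrays. Both probe sets thus ordered the arrays alike at the top, with SCARKO-jsd 2 and SCARKO-jsd 3 above all jsd arrays, and with jsd 1 the lowest array. The differences were 0.53 ± 0.27 and 0.55 ± 0.26 (SE), with intervals of -0.12 to 1.17 and -0.073 to 1.17 (limma, adjusted p = 0.580 and 0.546). Without SCARKO-jsd 2 both were 0.38. The remaining probe set, 1417375_at, varied little, with 7.75, 7.90 and 7.84 in SCARKO-jsd arrays and 7.78, 7.71 and 7.79 in jsd arrays, and differed by 0.074 ± 0.081. The 3 probe sets of 1 gene therefore gave unequal differences.

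Tuba8, a divergent alpha-tubulin, had the smallest p of the 21, on a probe set close to the dim limit (mean 6.02). On 1419518_at its log2 expression was 5.91, 6.25 and 6.36 in SCARKO-jsd 1, 2 and 3, and 5.80, 5.85 and 5.94 in jsd 1, 2 and 3. SCARKO-jsd 1 lay within the jsd range and the other two above it. The difference was 0.31 ± 0.13 (SE), with an interval of -0.0019 to 0.63 and a limma p of 0.0510 before and 0.488 after adjustment. Its other probe set, 1446771_at, was dim and differed by 0.027 ± 0.12. The 2 Tuba8 differences were 0.28 ± 0.14 and -0.030 ± 0.13 without SCARKO-jsd 2.

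**Figure D2:**
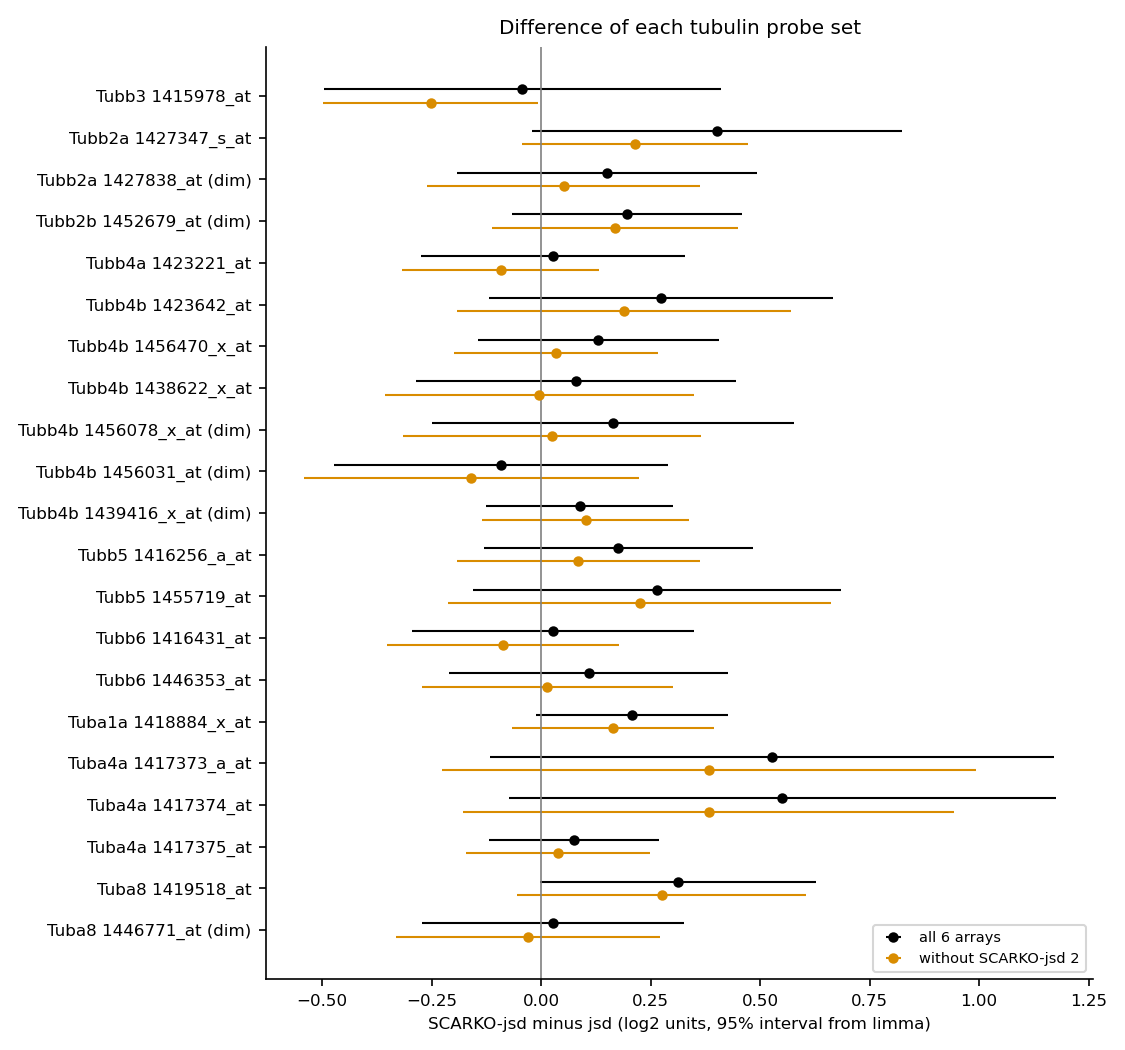
Difference of each tubulin probe set, SCARKO-jsd minus jsd in log2 units, with its 95% interval from limma, for all 6 arrays (black) and without SCARKO-jsd 2 (orange). With all arrays every interval holds 0, and without SCARKO-jsd 2 the Tubb3 interval alone lies below it, from -0.50 to -0.0062.

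Most members shared a pattern over the arrays. SCARKO-jsd 2 was the highest of the 6 arrays for 16 of the 21 probe sets, against 39.4% of all probe sets, and the lowest for 0, against 19.3%. It was above all jsd arrays for 18 members, and SCARKO-jsd 3 for 15. For all probe sets these shares were 46.5% and 30.3%. SCARKO-jsd 1 went otherwise. It was above all jsd arrays for 2 members, within their range for 13 and below all of them for 6, Tubb3, Tubb4a and both Tubb6 probe sets among these. Over all probe sets, SCARKO-jsd 1 was above all jsd arrays for 26.4% and below all of them for 31.1%, so the 6 below are near the general share. The SD among SCARKO-jsd arrays exceeded that among jsd arrays for 13 of the 21 members. The matching share over all probe sets was not counted, so this does not set the members apart. Without SCARKO-jsd 2 the median difference of the 21 was 0.052, with 15 above 0 and 6 below, beside a median of -0.00083 and a share above 0 of 49.8% over all probe sets.

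**Figure D3:**
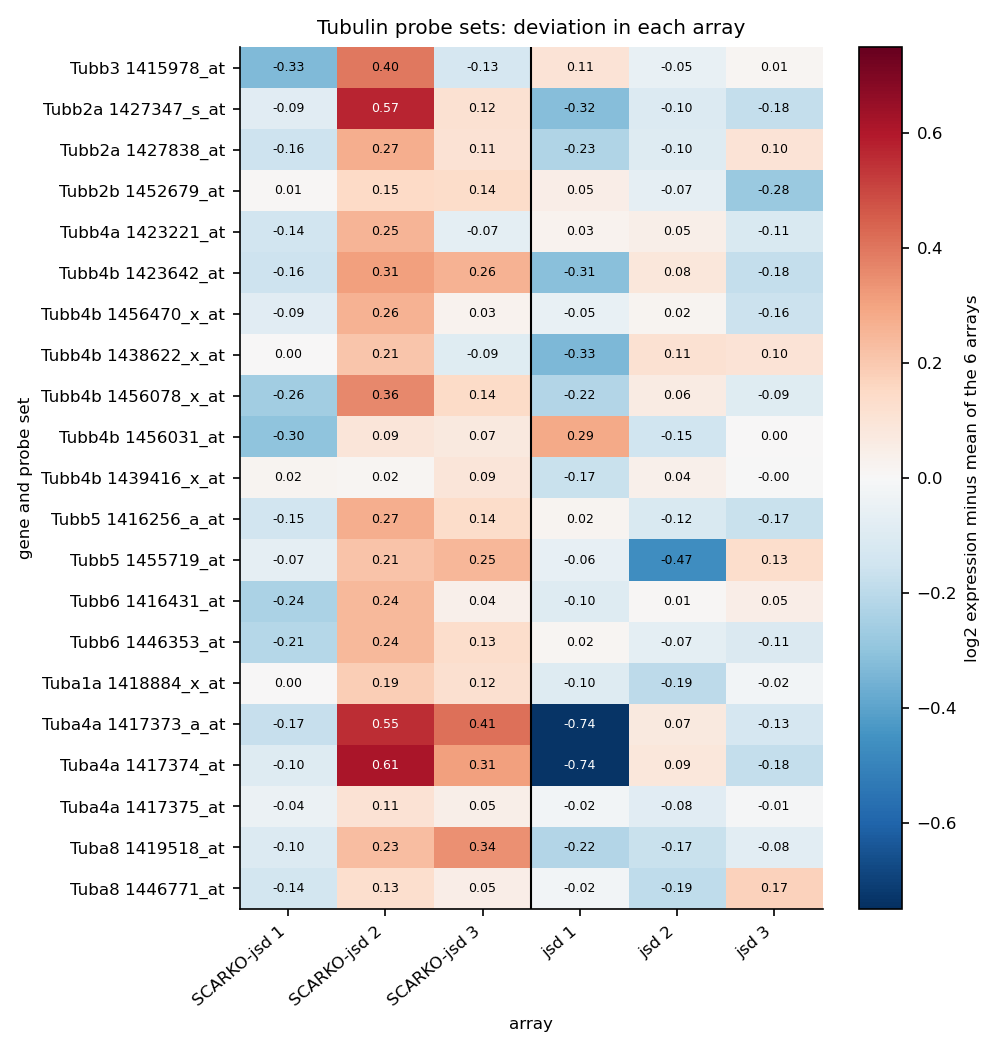
Deviation of each tubulin probe set from its mean over the 6 arrays (log2 units, colour scale at the right and printed in each cell), with SCARKO-jsd arrays left of the line and jsd arrays right of it. SCARKO-jsd 2 is the highest array for 16 of the 21 probe sets, and jsd 1 is low for Tuba4a on 2 probe sets.

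Markers of spermatogonia were higher in SCARKO-jsd 2 and SCARKO-jsd 3, the arrays in which most members stood above all jsd arrays, than in the rest. The 9 measured spermatogonial markers had a median deviation from their means of 0.15, 0.66 and 0.45 log2 units in SCARKO-jsd 1, 2 and 3, and -0.29, -0.31 and -0.63 in jsd 1, 2 and 3. Their summed linear expression was 7738 to 9268 in SCARKO-jsd arrays and 5991 to 7087 in jsd arrays, with 7 of 9 higher on average and none called. Their median difference was 0.82, and 0.70 without SCARKO-jsd 2, where Uchl1, an abundant ubiquitin hydrolase of spermatogonia, was called (0.70 ± 0.12; limma, adjusted p = 0.0464). Of the 14 markers of meiosis and spermatids, 10 were higher on average and 1 was called, Sycp3 of the synaptonemal complex (1.31 ± 0.14; limma, adjusted p = 0.0339, singled out after its value was seen), with sums of 1366 to 1637 in SCARKO-jsd arrays and 896 to 1087 in jsd arrays. Sertoli cell markers summed to 82919 to 89818 in SCARKO-jsd arrays and 82446 to 89507 in jsd arrays, with 7 of 12 higher. Without SCARKO-jsd 2 the meiotic and spermatid list had 2 called genes, Sycp3 (1.22 ± 0.14; limma, adjusted p = 0.0119) and the dim Hormad1, a protein of meiotic chromosome axes (0.81 ± 0.12; 0.0315). Over all probe sets, 53.2% of differences were above 0 and 0.280% were called, or 1.39% called without SCARKO-jsd 2. The part of germ cells in the tubulin values was not tested.

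Probe sets that name several alpha-tubulin genes are not members, and their values stand beside these. Tuba3a and Tuba3b, alpha-tubulins known from the testis, share 1416311_s_at and 1448296_x_at. The first had 10.33, 11.15 and 11.16 in SCARKO-jsd 1, 2 and 3, and 10.08, 10.35 and 9.63 in jsd 1, 2 and 3 (log2 expression). SCARKO-jsd 2 and 3 were above all jsd arrays and SCARKO-jsd 1 was just under jsd 2, as it was for the second. The differences, 0.86 ± 0.28 and 0.99 ± 0.33 (SE; limma, adjusted p = 0.357 and 0.373), were larger than that of any member, and were 0.73 ± 0.28 and 0.80 ± 0.32 without SCARKO-jsd 2. Those sharing Tuba1c with Gm6682 gave 0.34 ± 0.19 and 0.40 ± 0.22 (0.14 and 0.19 without SCARKO-jsd 2), and the one sharing Tuba1b with Gm5620 gave 0.10 ± 0.083 (0.074 without it). Of 10 other tubulin genes listed, 6 had a probe set of their own, and 0 of their 9 probe sets passed, with a median difference of 0.064. Gamma-tubulin Tubg1, which starts microtubules at the centrosome, differed by 0.11 ± 0.14, and its relative Tubg2 and epsilon-tubulin Tube1 by 0.064 ± 0.21 and 0.093 ± 0.14 on their brightest probe sets. Without SCARKO-jsd 2 Tubg1 differed by 0.016 ± 0.13, Tubg2 by -0.17 ± 0.12 and Tube1 by 0.093 ± 0.15, and the median of the 9 was 0.026.

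The genes that fold, modify, nucleate, bind and cut tubulin were counted next, and 1 of them passed. Among 23 folding genes, 0 of 53 probe sets passed (10 at an unadjusted p under 0.05, where 10.3% of all probe sets were), and the median difference was 0.12, or 0.11 without SCARKO-jsd 2, beside 0.013 over all probe sets. That list holds the 8 subunits measured of the CCT chaperonin, the ring that folds new tubulin and actin, a subset chosen after its values were seen. All 8 brightest probe sets were higher on average in SCARKO-jsd testes, by 0.16 to 0.40 log2 units (limma, adjusted p from 0.319 to 0.700), and for 7 of the 8 the groups did not overlap, as for 9.99% of all probe sets with SCARKO-jsd higher. Cct8 had 11.06, 11.32 and 11.16 in SCARKO-jsd 1, 2 and 3, and 10.78, 10.95 and 10.62 in jsd 1, 2 and 3, a difference of 0.40 ± 0.12 (SE). Cct4 differed by 0.29 ± 0.088 and Cct5 by 0.28 ± 0.087. Without SCARKO-jsd 2 the 8 differences ran from 0.11 to 0.32. Of 7 Cct4 probe sets, 5 had positive differences, and the dim 1415868_at and the brighter 1430034_at differed the other way, by -0.52 ± 0.11 and -0.53 ± 0.27 (-0.43 and -0.80 without SCARKO-jsd 2).

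Of 20 measured genes of tubulin modification, 0 of 57 probe sets passed (6 at an unadjusted p under 0.05, near the 10.3% of all probe sets), with a median of 0.0033, or -0.041 without SCARKO-jsd 2. Ttll12, of the tubulin tyrosine ligase family, had 9.44, 9.86 and 9.67 in SCARKO-jsd 1, 2 and 3, and 9.18, 9.08 and 9.28 in jsd 1, 2 and 3. Its groups did not overlap on this brighter probe set, and the difference was 0.48 ± 0.13 (limma, adjusted p = 0.249). On its other probe set, 1445451_at, the groups overlapped and the difference was -0.029. Ttll1, a tubulin glutamylase needed for sperm flagella, differed by 0.61 ± 0.18 (limma, adjusted p = 0.303) with no overlap on its brightest probe set. Ttll4, another glutamylase, differed by -0.33 ± 0.13 (0.442) on its brightest. The other Ttll1 probe sets differed by 0.505 and 0.11, and the other Ttll4 probe sets by -0.12, -0.25 and -0.017. With SCARKO-jsd 2 left out, the brightest probe set of Ttll12 differed by 0.38, that of Ttll1 by 0.42 and that of Ttll4 by -0.27. In the gamma-tubulin ring complex, which nucleates microtubules, 0 of 19 probe sets passed (1 unadjusted), with a median of -0.042. By the brightest probe set of each gene, its smallest p values belonged to Cdk5rap2 (0.38 ± 0.11), Tubgcp4 (-0.22 ± 0.13) and Tubgcp2 (-0.15 ± 0.097). These differed by 0.33, -0.335 and -0.20 without SCARKO-jsd 2. The other Cdk5rap2 probe sets differed by -0.063 and 0.11 (-0.12 and 0.037 without SCARKO-jsd 2). The other Tubgcp4 probe sets differed by 0.074 and -0.44 (-0.049 and 0.15 without it). Among severing enzymes 0 of 12 probe sets passed (1 unadjusted), with a median of 0.12, and Katnal1, a katanin subunit that Sertoli cells need for their microtubules, differed by -0.29 ± 0.13 on its brighter probe set and -0.34 ± 0.12 on the other. Katna1 and Fignl1, of the same list, differed by 0.22 ± 0.11 and 0.50 ± 0.28. The Fignl1 difference rested on SCARKO-jsd 2, which had 7.73 where SCARKO-jsd 1 and 3 had 6.599 and 6.95, and was 0.18 ± 0.14 without that array. Without it Katna1 differed by 0.18 and Katnal1 by -0.36 and -0.23, and the median of the list was 0.071.

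Clasp2, which holds the growing ends of microtubules, was the 1 gene of 32 microtubule-associated proteins that passed, and it fell. It had the 1 call among the 101 probe sets of the list, where 0.280% of all probe sets were called. On 1427328_a_at its log2 expression was 6.42, 6.25 and 6.58 in SCARKO-jsd 1, 2 and 3, against 7.53, 7.41 and 7.29 in jsd 1, 2 and 3. The groups lay well apart, at -0.99 ± 0.12 (SE; limma, adjusted p = 0.0440). Of its 4 other probe sets, the brightest, 1424836_a_at, differed by -0.61 ± 0.11 (limma, adjusted p = 0.111) without overlap. The dim 1456911_at differed by -0.71 ± 0.15 (0.173), also without overlap. The last 2, dim as well, differed by 0.091 and -0.014. The call held without SCARKO-jsd 2 (adjusted p = 0.0158) and ended without any other single array (0.110 to 0.263). Map7, which recruits kinesin to microtubules and is needed for the Sertoli cell cytoskeleton, had 10.43, 10.35 and 10.02 in SCARKO-jsd arrays and 10.80, 10.70 and 10.83 in jsd arrays on 1421836_at. It differed by -0.51 ± 0.13 there without overlap, and by -0.79 ± 0.20 and -0.70 ± 0.28 on its other probe sets (limma, adjusted p from 0.223 to 0.464). Its 3 differences were -0.55, -0.81 and -0.48 without SCARKO-jsd 2. Dcx, a neuronal microtubule protein, was dim on all its probe sets. The brightest differed by 0.66 ± 0.17 (limma, adjusted p = 0.234), or 0.58 ± 0.17 without SCARKO-jsd 2. The others differed by 0.405, 0.15 and -0.05. Map1b, a microtubule protein of neurons singled out after its values were seen, had 5.28, 4.64 and 5.07 in SCARKO-jsd 1, 2 and 3, and 5.94, 6.07 and 6.06 in jsd 1, 2 and 3 on the dim 1421851_at. It differed by -1.03 ± 0.17 there (limma, adjusted p = 0.0892) and passed without SCARKO-jsd 2 (-0.85 ± 0.10, adjusted p = 0.0168). That brought the calls of the list to 2 of 101, where 1.39% of all probe sets passed without that array. The other Map1b probe sets differed by -0.86 ± 0.32 and -0.10 ± 0.079. Over the 101 probe sets of the list 14 had an unadjusted p under 0.05, near the 10.3% of all probe sets, and the median was -0.038, or -0.068 without SCARKO-jsd 2.

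**Figure D4:**
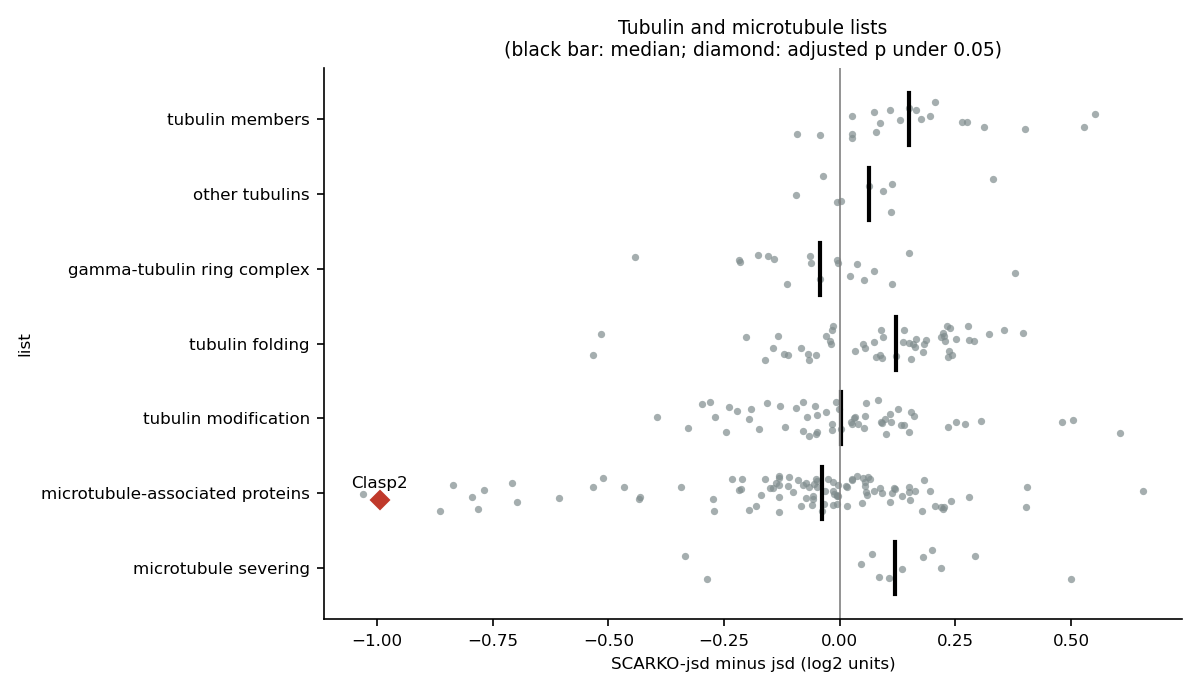
Differences of single probe sets, SCARKO-jsd minus jsd in log2 units, for the 21 tubulin members and the 6 lists of other tubulin and microtubule genes, with vertical scatter for visibility only. Black bars are medians (0.15 for the members, 0.12 for tubulin folding), and the diamond is Clasp2, the 1 probe set of those shown with an adjusted p under 0.05.

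Tubb3 has been counted among the genes that androgen controls in Sertoli cells, and the other 10 genes of such a list were set beside it. That genes of such a list fall under this knockout was known when it was drawn up, so a fall is no independent evidence. Of the 17 probe sets of these 10 genes, 4 passed, where 0.280% of all probe sets did. All 4 fell, belonging to Drd4, Rhox5 and Tsx. Of the 17 differences 15 were below 0 and 2 above, with a median of -0.48. Without SCARKO-jsd 2, 6 passed, where 1.39% of all did, with Corin, a membrane protease (-3.37 ± 0.34; limma, adjusted p = 0.00879, against -3.05 ± 0.41 and 0.0572 with all arrays), and Tpd52l1 (-0.51 ± 0.089; 0.0470, against -0.48 ± 0.078 and 0.0883) added. Drd4, a dopamine receptor, fell by 2.25 ± 0.081 on the brighter of its 2 probe sets (SE on the log2 scale; limma, adjusted p = 0.00258), Rhox5 by 4.35 ± 0.23 (0.00563) and Tsx, an X-linked testis gene, by 1.54 ± 0.11 (0.0125). The Tubb3 interval, from -0.50 to 0.41 with all arrays, excluded falls of the sizes of Drd4, Rhox5 and Tsx. It did not exclude a fall of 0.48, the size of the median of the list. Cldn3 of that list was singled out after its values were seen. Its probe sets differed by -0.17, 0.13, -0.053 and -0.018 (limma, adjusted p from 0.835 to 0.977). Without jsd 1 or jsd 2 the adjusted p of Rhox5 was 0.0621 or 0.0687, with differences of -4.29 and -4.21.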

How the data were processed

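RNA of whole testes was measured on 6 arrays. The authors ran RMA (affy), per the submitters' processing notes, and deposited 1 log2 value for each probe set and array. The affy version and a genome build are not given in the sources used here. Of 45101 probe sets, 64 controls were left out of the tests. The platform annotation from GEO may be outdated. It gave 1 symbol for 34945 of the others, several for 932 and none for 9160, and 34741 symbols matched RefSeq (GRCm38.p6) by gene ID. Those with more than 1 symbol stood for no single gene. Because every member probe set was to be shown, each probe set was tested by itself with no filter on dim ones, using limma 3.58.1 (lmFit, eBayes) in R 4.3.3, genotype as the only term, two-sided, with Benjamini-Hochberg adjustment over 45037 probe sets. For arrays, the number of arrays limits the precision. The members, lists, alternatives and tests were chosen with earlier results of these data known. Named genes are the members, those of each list that passed and the 3 of each with the smallest p on their brightest probe set, the 3 most like Tubb3, and Rhox5. Lists are given by counts and medians, with no set test; 7 of their genes had no probe set of their own. Of the list of androgen targets, 10 of 10 genes were measured. Markers of myoid cells (5 of 5 genes measured, median difference 0.028) and macrophages (6 of 6, -0.073) had no called gene with all arrays. Nor had those of endothelium (5 of 5, 0.22) and Leydig cells (5 of 7, 0.050). Without SCARKO-jsd 2 these medians were -0.0525, 0.00092, 0.0038 and -0.025, in the same order. Kdr of endothelium was then called (-0.945 ± 0.13), where 1.39% of all probe sets were. Same-numbered arrays were not taken as pairs: their deviations from group means correlated at -0.318, 0.281 and 0.432. No 2 arrays were identical. The fit was tested on simulated data. Alternatives were a dim filter, the brightest or mean probe set per gene, median centring, further quantile normalization, trend and robust, array weights, a replicate block, a threshold of 0.1, and each array left out. Plots used Python 3.11.15 with matplotlib 3.10.9.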

Additional observations from a re-analysis of the deposited data

How the results depend on the processing

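The count of 0 tubulin calls was the same under 14 of 15 alternatives. The exception was array weights, with 6 calls, all higher (Tubb2a, Tubb4b, Tubb5, Tuba1a, Tuba4a and Tuba8, 1 probe set each; lowest adjusted p = 0.0102), 8870 calls over the table and 69 in the lists; the weight estimation did not converge, and it weighted SCARKO-jsd 3 at 15.6 and SCARKO-jsd 2 at 0.161. The 126 calls over all probe sets became 390 with the brightest probe set per gene, 346 with the mean per gene, 63 with median centring, 215 with trend and robust, 372 at a threshold of 0.1 and 0 with the replicate block (the cause was not tested). The 5 list calls became 0 with the replicate block and 8 at a threshold of 0.1. With median centring the median difference of the members was 0.19, with 20 above 0 and 1 below. Leaving out 1 array gave 0 to 627 calls in all (0, 3 and 25 when the array was jsd 1, 2 or 3, and 19, 627 and 14 when it was SCARKO-jsd 1, 2 or 3), 0 to 8 in the lists and a member median of 0.052 (without SCARKO-jsd 2) to 0.24 (without SCARKO-jsd 1). The Tubb3 difference turned to 0.00067 with median centring, 0.11 without SCARKO-jsd 1 and 0.011 without SCARKO-jsd 3, and was lowest without SCARKO-jsd 2, at -0.25. Signs also turned for Tubb4a (-0.073 with array weights, -0.023 without jsd 3, and -0.092 without SCARKO-jsd 2 to 0.10 without SCARKO-jsd 1), Tubb6 1416431_at (-0.016 without jsd 1, and -0.087 without SCARKO-jsd 2 to 0.15 without SCARKO-jsd 1), Tuba8 1446771_at (-0.030 without SCARKO-jsd 2, and -0.060 without jsd 2 to 0.12 without jsd 3), Tubb4b 1438622_x_at (-0.027 with array weights, -0.0042 without SCARKO-jsd 2, and -0.068 without jsd 1 to 0.16 without jsd 2) and Tubb4b 1456031_at (0.019 with array weights, 0.028 without jsd 1, and -0.19 without jsd 2 to 0.035 without SCARKO-jsd 1). No other member changed sign or side under these alternatives. The replicate block changed no tubulin call (lowest adjusted p = 0.239) and ended those of Clasp2 (0.179) and Rhox5 (0.0583). Dim members have values near background, where differences are compressed.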
